A study of Mus musculus with 6 samples.

Results

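Interstitial cells of Cajal are the pacemaker cells of the gut wall, and 8 genes used to describe them were followed in mouse colon: Kit, Ano1, Etv1, Gjc1, Thbs4, Cacna1h, Prkcq and Pde3a. The members were taken by name, and each was represented by its brightest probe set over all 6 arrays. Of the 8, 7 had a probe set annotated to that gene alone, out of 18193 genes with such a probe set. All 3 probe sets of Etv1 were annotated to Etv1 and to Gm5454, which the gene table lists as a pseudogene, so their signal cannot be assigned to Etv1 alone and is called the Etv1/Gm5454 probe set. It was fitted beside the other genes, which made 18194 features.

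The samples were total RNA from the large intestine of untreated female C57BL/6J mice, an inbred laboratory strain, with 3 libraries labelled proximal colon and 3 labelled distal colon. According to the design text, 3 animals gave both regions, and neither their age nor which libraries share an animal is given. Each library was hybridised to 1 array, and the values are log2 expression as deposited. In such tissue, fewer cells of a type and less RNA per cell cannot be told apart.

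Interstitial cells of Cajal lie between the smooth muscle layers and around the enteric nerve plexus, where they generate the slow electrical waves that time contractions and relay signals from enteric nerves to muscle. Signalling through the receptor tyrosine kinase Kit keeps them alive, and the ETS family transcription factor Etv1 acts with it. Calcium released inside the cell opens the chloride channel Ano1, which carries the pacemaker current, and gap junctions pass the current to neighbouring cells. None of these genes is limited to that cell. Kit is also known from mast cells, Ano1 from secretory epithelium and pancreatic acinar cells, Prkcq from T cells, Gjc1 from smooth muscle, and Thbs4 from muscle, tendon and other connective tissue.

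One pair of libraries went against its labels, which bears on every comparison below. Hoxb13, which patterns the posterior end of the body, was at 13.39 in the proximal 1 library and at 6.65 in the distal 3 library. It was at 6.53 and 6.48 in proximal 2 and 3, and 13.78 and 13.29 in distal 1 and 2. Over all features the correlation of proximal 1 was 0.9935 with distal 1 and 0.9766 with proximal 2, taken across genes, which are not independent replicates. Libraries are therefore called by their labels, and each member's result is given with all 6 libraries and without proximal 1 and distal 3. Differences of other genes and lists are mostly those of the other 4 libraries, and can be much smaller as labelled. For pancreatic acinar markers the median difference was -0.03 as labelled and 2.99 in those 4 libraries. That 2.99 rests mostly on distal 1, where the list averaged 11.86. The list averaged 6.82 in distal 2, and 6.85 and 6.63 in proximal 2 and 3. Leaving out proximal 1 and distal 3 was chosen on expression profiles of these data. The p-values from the remaining 4 libraries therefore overstate the evidence and describe those libraries only. The epithelial markers averaged 13.68 to 13.93 and the smooth muscle markers 12.43 to 12.94 in the 6 libraries.

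The windows around the transcription starts of Kit, Ano1 and Thbs4 are shown because the results turn on these 3 genes, since Ano1 and Thbs4 did not follow the flat profile of Kit. Sequences are from RefSeq on GRCm38.p6, run from 250 bases before the start to 50 after it, and are read 5′ to 3′ on the gene's strand. The first of 2 windows listed for Kit lies at chr5:75574737-75575036 on the plus strand, Ano1 at chr7:144738524-144738823 on the minus strand and Thbs4 at chr13:92794769-92795068 on the minus strand. Capitals mark the GC box GGGCGG on either strand, where the opposite strand reads CCGCCC.
Kit: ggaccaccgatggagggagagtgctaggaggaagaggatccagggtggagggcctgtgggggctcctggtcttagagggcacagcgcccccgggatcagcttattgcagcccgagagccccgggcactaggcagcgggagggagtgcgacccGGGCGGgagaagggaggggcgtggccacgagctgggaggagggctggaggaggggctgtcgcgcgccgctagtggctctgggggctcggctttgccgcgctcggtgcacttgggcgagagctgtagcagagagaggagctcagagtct
Ano1: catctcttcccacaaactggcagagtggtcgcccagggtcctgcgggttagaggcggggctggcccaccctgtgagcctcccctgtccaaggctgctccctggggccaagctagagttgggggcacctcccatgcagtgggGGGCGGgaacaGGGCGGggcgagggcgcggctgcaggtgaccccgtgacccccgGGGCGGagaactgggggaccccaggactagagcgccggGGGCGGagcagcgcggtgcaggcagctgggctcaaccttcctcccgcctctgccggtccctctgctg
Thbs4: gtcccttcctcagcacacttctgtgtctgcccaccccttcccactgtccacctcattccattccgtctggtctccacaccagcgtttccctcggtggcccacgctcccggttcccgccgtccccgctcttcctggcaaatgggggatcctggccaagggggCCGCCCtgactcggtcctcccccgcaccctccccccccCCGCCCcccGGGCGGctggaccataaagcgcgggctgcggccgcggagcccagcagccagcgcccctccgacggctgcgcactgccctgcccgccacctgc

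The window of Ano1 held 4 GC boxes, that of Thbs4 held 3 and that of Kit held 1, and 35.9% of 27025 such windows, 1 per gene, held at least 1. Their G and C content was 71.7% for Ano1, 72.0% for Thbs4 and 69.0% for Kit. The ETS core CCGGAA, found in 15.2% of all windows, was in none of these 3. Neither were the motifs CAATAAA (4.84% of windows) and TCGTAAA (0.625%), which are of the kind bound by group 13 Hox proteins, or the TATA box TATAAA (14.2%). All motifs were searched on both strands, no 2 matches in the printed windows overlapped, and a match or its absence in this window is a description only. Windows were found for 5 of the 8 members, and that of Etv1 held none of the 5 motifs.

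**Figure D1:**
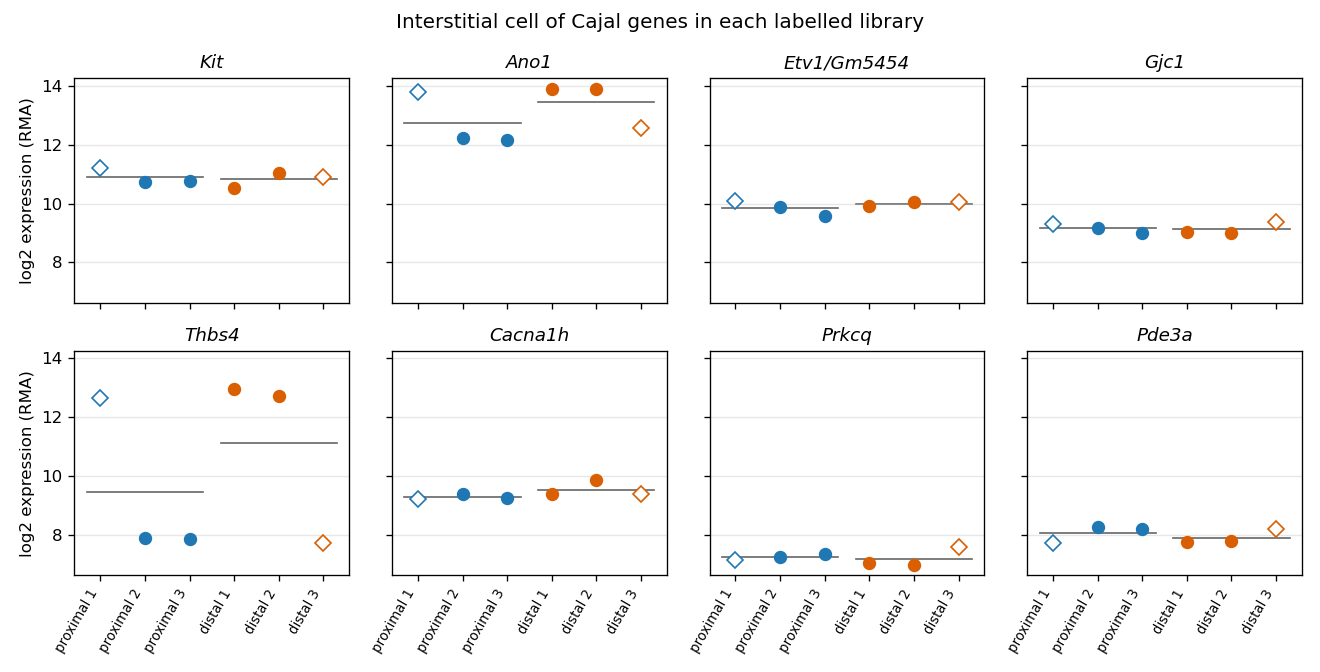
The log2 expression (vertical axis) of each of the 8 genes is plotted for the 6 libraries by label (horizontal axis), blue for proximal and orange for distal, with grey lines at the mean of the 3 libraries of each label. Open diamonds are proximal 1 and distal 3. Thbs4 spans 5.22 and Ano1 1.76 log2 units, while Kit spans 0.69.

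Kit, the receptor for stem cell factor, was measured in every library and at a similar level. It was 11.22, 10.74 and 10.78 in proximal 1, 2 and 3, and 10.53, 11.04 and 10.89 in distal 1, 2 and 3. The groups overlapped, with the highest value in proximal 1 and the lowest in distal 1. The means were 10.91 ± 0.27 (SD, n = 3) in proximal and 10.82 ± 0.26 (SD, n = 3) in distal libraries, so that the difference was -0.09 (SE 0.19, limma adjusted p = 0.898). Without proximal 1 and distal 3 the difference, distal minus proximal, was 0.025 (SE 0.19, limma adjusted p = 0.944). Its 95% confidence interval ran from -0.45 to 0.50, so a difference of either sign within those bounds is not settled. A second, dimmer Kit probe set, at 7.43 to 8.12, differed by -0.14 with 6 libraries and -0.18 with 4, and did not pass either.

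Ano1, the calcium-activated chloride channel, did not follow the flat profile of Kit. It was 13.79, 12.24 and 12.14 in proximal 1, 2 and 3, and 13.90, 13.88 and 12.56 in distal 1, 2 and 3. Proximal 1, distal 1 and distal 2 were high and the remaining libraries were lower, so the groups overlapped as labelled. The means were 12.72 ± 0.93 (SD, n = 3) in proximal and 13.45 ± 0.77 (SD, n = 3) in distal libraries. The difference of 0.72 (SE 0.56, limma adjusted p = 0.824) did not pass. Without proximal 1 and distal 3, Ano1 was higher in distal libraries by 1.70 (SE 0.11, limma adjusted p = 0.00114), which is 3.25-fold with a 95% confidence interval of 2.70 to 3.92. The second Ano1 probe set gave 2.72 (SE 0.13, limma adjusted p = 0.000508, fitted over all named probe sets). It was 12.01, 12.22 and 12.24 in proximal 1, distal 1 and distal 2, and 9.39 to 9.97 in the other libraries. With 1 of the 4 libraries left out the Ano1 call was lost without proximal 2 (1.75, limma adjusted p = 0.0597) and without proximal 3 (1.65, limma adjusted p = 0.0673).

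Thbs4, which encodes the secreted matrix protein thrombospondin 4, had the widest range of the 8. It was 12.65, 7.90 and 7.88 in proximal 1, 2 and 3, and 12.95, 12.72 and 7.73 in distal 1, 2 and 3. The high libraries were the same as for Ano1, and none of the low libraries fell under 6.54, the lower quartile of all gene values. The means were 9.48 ± 2.75 (SD, n = 3) and 11.13 ± 2.95 (SD, n = 3), a difference of 1.66 (SE 1.85, limma adjusted p = 0.837) that did not pass as labelled. Without proximal 1 and distal 3, Thbs4 was higher in distal libraries by 4.95 (SE 0.12, limma adjusted p = 0.000109), which is 30.8-fold with a 95% confidence interval of 24.8 to 38.3. In those 4 libraries 25 features had a larger absolute difference than Thbs4 and 437 a larger one than Ano1. Leaving out any 1 of the 4 libraries gave 4.83 to 5.06, with limma adjusted p from 0.0246 to 0.0487. Thbs4 had 1 probe set, so no other probe set bears on it.

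The Etv1/Gm5454 probe set, for the transcription factor that works downstream of Kit in these cells, followed neither Ano1 nor Thbs4. It was 10.07, 9.89 and 9.57 in proximal 1, 2 and 3, and 9.91, 10.04 and 10.05 in distal 1, 2 and 3, with overlapping groups and the lowest value in proximal 3. The difference was 0.16 (SE 0.15, limma adjusted p = 0.824) as labelled and 0.25 (SE 0.15, limma adjusted p = 0.304) without proximal 1 and distal 3. The other Etv1/Gm5454 probe sets gave -0.17 and -0.015 in those 4 libraries, so they did not share its sign. The 2 relatives of Etv1 in the PEA3 subfamily differed by 0.20 (Etv4) and -0.50 (Etv5) as labelled, and neither passed. Both passed in the 4 libraries, where 19.2% of all features did. Etv4 was higher in distal libraries (1.22, SE 0.21, limma adjusted p = 0.0184) and Etv5 was lower (-0.76, SE 0.10, limma adjusted p = 0.00943).

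Cacna1h, the T-type calcium channel that opens near the resting potential, was 9.23, 9.38 and 9.24 in proximal 1, 2 and 3, and 9.38, 9.86 and 9.39 in distal 1, 2 and 3. Distal 2 was the highest library, and the groups shared the value 9.38. The difference was 0.26 (SE 0.16, limma adjusted p = 0.824) as labelled and 0.31 (SE 0.18, limma adjusted p = 0.299) in the 4 libraries. Gjc1, a connexin of gap junctions, was 9.32, 9.16 and 9.0 in proximal 1, 2 and 3, and 9.02, 9.01 and 9.36 in distal 1, 2 and 3. Proximal 1 and distal 3 were its highest libraries, and the whole range was 0.36. The difference was -0.03 (SE 0.15, limma adjusted p = 0.960) as labelled and -0.065 (SE 0.11, limma adjusted p = 0.736) in the 4 libraries, and its sign turned under quantile normalization and median centring in both fits.

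Prkcq, the kinase protein kinase C theta, was the dimmest member, at 7.15, 7.25 and 7.37 in proximal 1, 2 and 3, and 7.05, 6.98 and 7.58 in distal 1, 2 and 3. Distal 3 was the highest library and distal 1 and 2 were the lowest. The difference was -0.05 (SE 0.18, limma adjusted p = 0.942) as labelled and -0.29 (SE 0.11, limma adjusted p = 0.127) in the 4 libraries. Pde3a, a phosphodiesterase that breaks down cyclic AMP and is inhibited by cyclic GMP, was 7.74, 8.28 and 8.22 in proximal 1, 2 and 3, and 7.76, 7.79 and 8.19 in distal 1, 2 and 3. Proximal 1, distal 1 and distal 2, the high libraries of Ano1, were its low libraries. The difference was -0.17 (SE 0.19, limma adjusted p = 0.843) as labelled. In the 4 libraries Pde3a was lower in distal libraries by -0.48 (SE 0.10, limma adjusted p = 0.0344). That call did not hold under quantile normalization (-0.40, limma adjusted p = 0.0562), median centring (-0.38, 0.0662) or a trended variance prior (0.0627), or without any 1 of the 4 libraries. Its other probe sets gave 0.03 and -0.35 and did not pass.

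As labelled, 0 of the 8 members passed (limma, adjusted p of 0.05), where 0% of 18194 features did. At an unadjusted p of 0.05 there were 0 members and 554 features. The groups were free of overlap for 0 members, against 7.33% of all features. Without proximal 1 and distal 3, 3 of 8 members passed, where 19.2% of features did. Higher in distal libraries were 2 members, Ano1 and Thbs4, where 7.71% of features were. Lower was 1 member, Pde3a, where 11.5% were. The median difference of the 8 was 0.06 as labelled and 0.14 in the 4 libraries, beside -0.02 and -0.045 over all features.

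**Figure D2:**
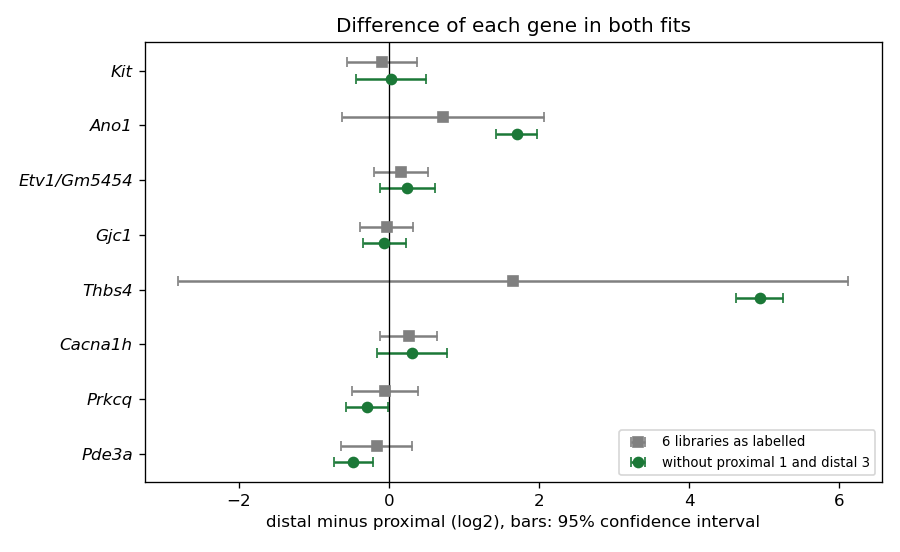
The difference of each gene, distal minus proximal in log2 units (horizontal axis), is shown as labelled (grey squares, 6 libraries) and without proximal 1 and distal 3 (green circles, 4 libraries), with bars for 95% confidence intervals from limma. Ano1 at 1.70 and Thbs4 at 4.95 stand away from 0 in the 4 libraries, and Kit lies at 0.025.

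Whether a member's difference was unequal to that of Kit was tested on the value of each gene minus Kit within each array. Thbs4 minus Kit differed between distal and proximal libraries by 4.92 in the 4 libraries, and Ano1 minus Kit by 1.68. For the other 5 members these values ran from -0.50 for Pde3a to 0.28 for Cacna1h. With the moderated variance of limma, 2 of the 7 members passed, Ano1 and Thbs4, where 7.12% of features did. The spread of Kit is shared by every feature, and in that fit the moderation replaced each feature's variance by a common one. All features therefore had the same SE of 0.33, and the p-values of that fit are not given. Passing there is a cut on the size of the difference and takes no account of each gene's own spread. With each gene's own variance, which leaves 2 libraries a label, the 95% confidence intervals were 3.32 to 6.52 for Thbs4 and 0.50 to 2.85 for Ano1. The limma p without moderation was 0.00564 for Thbs4 and 0.0257 for Ano1, and adjusted over all features these became 0.347 and 0.437. As labelled, Thbs4 minus Kit differed by 1.75 and Ano1 minus Kit by 0.82. The SE was 2.26 for Thbs4 and 0.63 for Ano1 with each gene's own variance, and 0.88 and 0.37 with the moderated variance, and neither passed either way.

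The genes with profiles nearest to these members were found by the root mean square difference of centred log2 values over the 6 libraries. For Kit they were Slc12a8 (0.061), Plcg2 (0.063), Lhx6 (0.063), Peli2 (0.064) and Shc4 (0.067). For Ano1 they were Htr4, a serotonin receptor (0.045), Hid1 (0.098), Adamts15 (0.10), Hoxd11 (0.10) and Rasd2 (0.12). For Thbs4 they were Cyp2f2 (0.18), the antisense RNA Hoxa11os (0.25), Nxpe4 (0.30), Csta1 (0.33) and Casp14 (0.37). Htr4 measured 11.68, 10.23 and 10.11 in proximal 1, 2 and 3 and 11.92, 11.84 and 10.47 in distal 1, 2 and 3. All 5 genes nearest to Ano1 and all 5 nearest to Thbs4 were high in proximal 1, distal 1 and distal 2. The 6 points share the split between those libraries and the others, so likeness over them is a description.

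**Figure D3:**
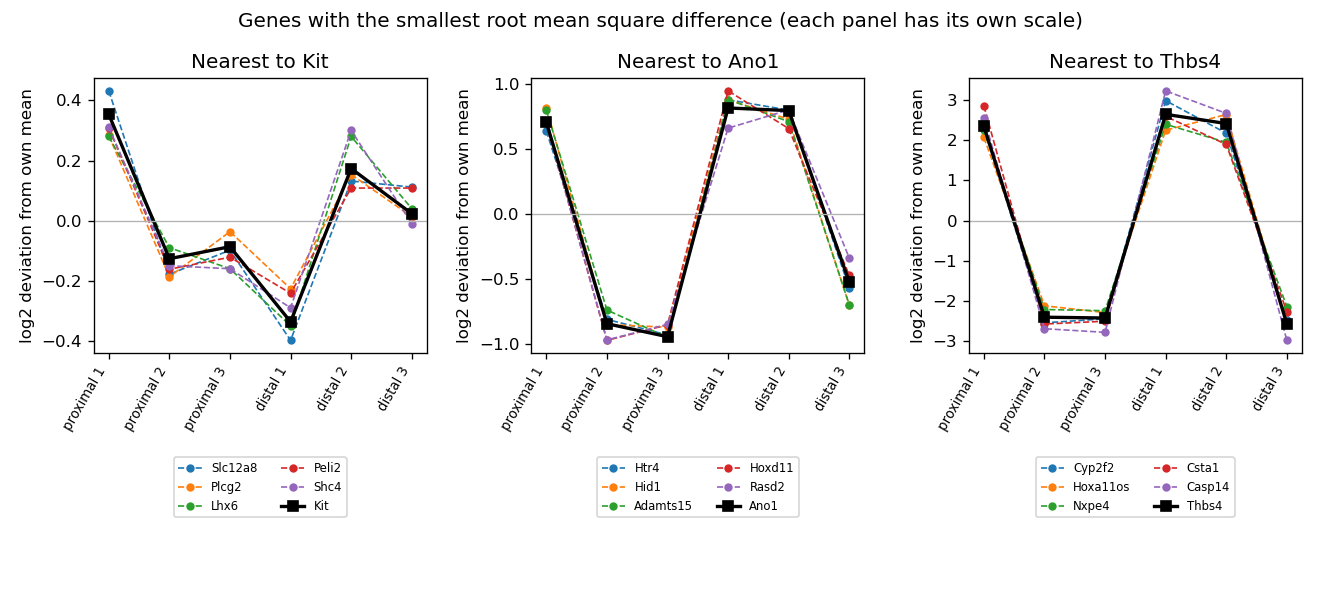
Centred log2 values (vertical axis, log2 deviation from each gene's own mean over the 6 libraries, with a scale per panel) are plotted by library for Kit, Ano1 and Thbs4 (black squares) and their 5 nearest genes (coloured points). Lines only join the points of a gene. The Kit panel spans less than 1 log2 unit, and in the Ano1 and Thbs4 panels proximal 1, distal 1 and distal 2 lie above 0.

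Families of the members were examined next, from lists written with earlier results of these data known. None of their genes passed as labelled, and counts in the 4-library fit, here and for the lists that follow, are to be read beside the 19.2% of all features called there. Of 6 measured anoctamins other than Ano1, 2 were higher and 1 was lower in distal libraries in the 4-library fit, 50% of the family, with a median difference of -0.16. Ano4 (1.22, SE 0.20, limma adjusted p = 0.0157) and the phospholipid scramblase Ano6 (0.60, SE 0.12, limma adjusted p = 0.0292) were higher, and Ano10 was lower (-0.60, SE 0.11, limma adjusted p = 0.0222). Ano4 measured 7.21, 7.02 and 7.57 in proximal 1, distal 1 and distal 2 and 5.84 to 6.11 in the others, the same split as Ano1. Its low libraries were under the lower quartile of 6.54, and as labelled it differed by 0.35 (SE 0.51, limma adjusted p = 0.858). None of the 4 other thrombospondins passed in either fit, and their differences in the 4 libraries ran from -0.33 for Thbs1 to 0.18 for Thbs3.

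Of 10 measured gap junction genes other than Gjc1, 1 was higher and 1 lower in distal libraries in the 4-library fit, a share of 20% that is near that of all features. Gjb5 was higher (3.22, SE 0.23, limma adjusted p = 0.00158), and Gjb2, a connexin of epithelia, was lower (-1.09, SE 0.13, limma adjusted p = 0.00698). Gja1, the connexin common in smooth muscle and many other cells, was bright at 12.07 to 12.71 and did not pass (-0.33, SE 0.16). The T-type channel Cacna1g, the protein kinases C Prkcd, Prkce and Prkch, the phosphodiesterase Pde3b and the Kit relatives Pdgfra, Pdgfrb, Csf1r and Flt3 did not pass either, with differences from -0.35 for Csf1r to 0.34 for Prkch.

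The genes around Kit and the pacemaker current were followed in 4 further lists, none with a member that passed as labelled. Of 19 measured KIT signalling genes, 2 were higher and 2 lower in distal libraries in the 4-library fit, a share close to that of all features, and the median difference was -0.005. The phosphoinositide 3-kinase subunits Pik3r1 (0.53) and Pik3ca (0.52) were higher, and the phosphatase Ptpn6 (-0.54) and the kinase Map2k2 (-0.51) were lower. Kitl, which encodes the Kit ligand, measured 12.03, 11.70 and 11.72 in proximal 1, 2 and 3 and 11.88, 11.90 and 11.95 in distal 1, 2 and 3, and differed by 0.18 (SE 0.10, limma adjusted p = 0.281).

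Of 15 measured genes of calcium and chloride handling, 4 were higher in distal libraries and 0 lower in the 4-library fit, a share of 26.7%, with a median difference of 0.41. This count was 6 to 9 under the scaling, filter, probe set and prior alternatives. They were the store calcium sensor Stim1 (0.73, SE 0.11), the plasma membrane calcium pump Atp2b4 (0.98, SE 0.16), the calcium pump Atp2a3 of internal stores (0.60, SE 0.11) and the L-type calcium channel Cacna1d (0.63, SE 0.14), with limma adjusted p from 0.0122 to 0.0336. Slc12a2, the cotransporter that loads cells with chloride, was bright at 13.48 to 13.92 and did not pass (0.30, SE 0.12). Of 13 genes of nitric oxide and cyclic nucleotide signalling, 4 were higher and 0 lower, a share of 30.8%, with a median difference of 0.22. They were the adenylyl cyclase Adcy6 (0.76), the protein kinase G substrate Mrvi1 (0.83), the neuronal nitric oxide synthase Nos1 (1.29) and the phosphodiesterase Pde4d (0.56).

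Of 10 measured receptors for enteric transmitters, 2 were higher and 3 lower in distal libraries in the 4-library fit, a share of 50%. The serotonin receptors Htr3a (0.64) and Htr2b (0.52) were higher. The endothelin receptor Ednrb (-1.77, SE 0.20) and the purine receptors P2ry1 (-1.18, SE 0.14) and P2ry2 (-1.04, SE 0.11) were lower. With 1 of the 4 libraries left out, calls over all features fell from 3494 to between 146 and 1633, with 165 and 146 without proximal 2 and 3 and 1633 and 405 without distal 1 and 2. The counts were then 0 to 2 for KIT signalling, 0 to 2 for calcium and chloride, 0 to 1 for nitric oxide and cyclic nucleotides and 0 to 3 for the receptors. For the families they were 0 to 1 for anoctamins, 0 to 1 for the PEA3 subfamily and 0 to 2 for gap junctions.

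Markers of other cells that carry these genes were set beside them. Values here are the mean log2 level of a list and the log2 of its summed linear values. No marker list had a gene that passed as labelled. In the 4-library fit the share called was 25% for mast cells and epithelium, 60% for T cells, 20% for acinar cells, 16.7% for smooth muscle and 33.3% for neurons and adipocytes, beside 19.2% of all features. It was 12.5% for pericytes and vascular smooth muscle, 8.33% for PDGFRA-positive cells and fibroblasts and 0% for glia. The 12 mast cell markers averaged 6.01 to 6.38 in proximal and 5.72 to 6.42 in distal libraries, with log2 sums of 10.62 to 10.89 and 10.49 to 11.05. The brightest of the list on average were Gata2 at 8.80 to 9.08 and Slc18a2 at 8.51 to 8.94, neither of which is limited to mast cells. Cma1 reached 8.24 in proximal 1, and Mcpt1 and Mcpt2 reached 8.75 and 8.38 in distal 3. The carboxypeptidase Cpa3 was at 4.26 to 5.20 and the IgE receptor subunits Ms4a2 and Fcer1a at 4.21 to 4.69 and 3.71 to 4.54, under the lower quartile of 6.54. In the 4-library fit, 1 mast cell marker was higher in distal libraries, the chymase Cma1 (1.62), and 2 were lower, Mcpt2 (-2.26) and Fcer1a (-0.60). Mcpt1 ranged from 4.61 in distal 1 to 8.75 in distal 3, while Kit ranged over 0.69. The part of mast cells in the Kit values was not tested.

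Of 10 measured T cell markers, 6 were lower and 0 higher in distal libraries in the 4-library fit. They include Cd3g (-2.39, SE 0.14), Cd3e (-1.33, SE 0.11) and Cd8a (-1.83, SE 0.29). The 4 that did not pass went both ways, with Cd4 at -0.555, Zap70 at -0.39, Cd2 at 0.125 and Cd247 at 0.47. The list averaged 7.84, 8.46 and 8.64 in proximal 1, 2 and 3 and 7.63, 7.72 and 8.41 in distal 1, 2 and 3, with log2 sums of 11.54 to 12.51 and 11.37 to 12.24. Prkcq was likewise lowest in distal 1, distal 2 and proximal 1, and the part of T cells in its values was not tested.

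Pancreatic acinar markers were highest as a list in proximal 1 and distal 1. The 10 measured markers averaged 11.90 in proximal 1 and 11.86 in distal 1, and 6.63 to 7.04 in the other 4, with log2 sums of 12.41 to 15.92 in proximal and 13.28 to 15.86 in distal libraries. The acinar carboxypeptidase Cpa1 measured 12.42 and 12.43 in proximal 1 and distal 1 and 5.88 in distal 2. Not all of the list was low in distal 2. Clps, pancreatic colipase, was at 13.62, 9.69 and 9.67 in proximal 1, 2 and 3 and at 13.10, 11.59 and 12.37 in distal 1, 2 and 3. Cela1 was at 13.43 in distal 2 and at 12.0 in distal 3, and the log2 sum of the list was 13.83 in distal 2 beside 12.43 and 12.41 in proximal 2 and 3. Ano1 was at 13.88 in distal 2 and 13.90 in distal 1, and Thbs4 was at 12.72 and 12.95. In the 4-library fit 2 acinar markers were higher in distal libraries, Cela1 (1.74) and Clps (2.67). Without distal 1, which leaves distal 2 alone under its label, Ano1 differed by 1.69 and Thbs4 by 4.83. The part of acinar cells in Ano1 and Thbs4 was not tested.

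Muscle and nerve markers differed by less than Ano1 and Thbs4. Of 12 smooth muscle markers, 2 were higher in distal libraries in the 4-library fit (2 to 6 under the other processing alternatives), the intermediate filament genes Synm (0.98, SE 0.15) and Des (0.61, SE 0.14), with log2 sums of 16.54 to 16.86 in proximal and 16.87 to 16.97 in distal libraries. Of 12 measured enteric neuron markers, 4 were higher and 0 lower, with log2 sums of 12.91 to 13.57 and 13.10 to 13.65. The 4 were Elavl3 (0.90), Snap25 (1.14), Nos1 (1.29) and Chat (0.52), the last at 4.47 to 5.21, under the lower quartile of 6.54. The 8 that did not pass include Vip (0.115) and Uchl1 (0.22), which are among the brightest of the list. Of 7 measured glial markers 0 passed, of 12 markers of PDGFRA-positive cells and fibroblasts only P2ry1 passed, and of 8 markers of pericytes and vascular smooth muscle only Kcnj8 passed (-0.61). Of 12 epithelial markers 3 were lower in distal libraries, Cdx2 (-0.88), Car1 (-0.55) and Krt20 (-0.49), with log2 sums of 17.45 to 17.71 and 17.48 to 17.69. Of 6 measured adipocyte markers 2 were lower, Lipe (-1.36) and Cidec (-2.68). The part of these cells in the values of the 8 genes was not tested.

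With 1 of the 4 libraries left out, these marker counts were 0 to 1 for mast cells, 0 to 2 for T cells, 0 to 8 for acinar cells and 0 for smooth muscle, neurons and pericytes. They were 0 to 1 for epithelium, adipocytes, and PDGFRA-positive cells and fibroblasts.

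**Figure D4:**
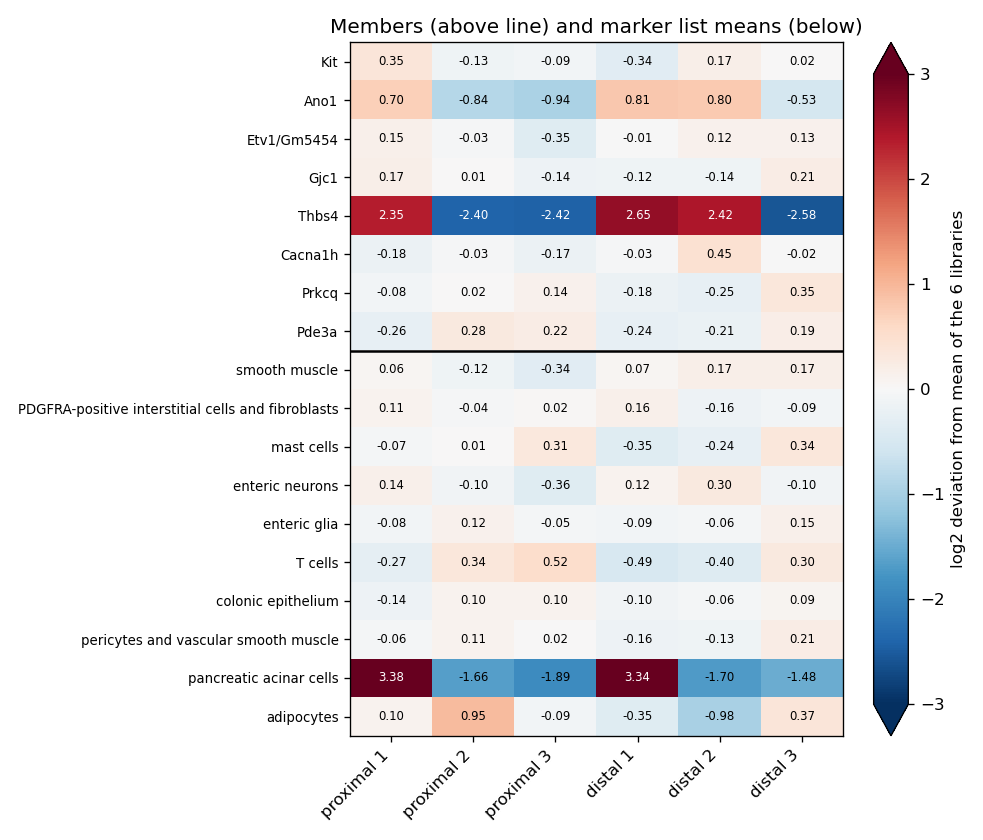
Each cell gives the log2 deviation from the mean of the 6 libraries, for each of the 8 genes (rows above the line) and for the mean of each marker list (rows below), by library (columns), with colours saturated at 3 log2 units and the value printed. Thbs4 is at 2.35, 2.65 and 2.42 in proximal 1, distal 1 and distal 2, while acinar markers are at 3.38 and 3.34 in proximal 1 and distal 1 and at -1.70 in distal 2.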

How the data were processed

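The deposited log2 values came from RMA in Partek 6.5, per the submitters' processing notes; the sources used here do not give its background setting or annotation. RMA evens out the arrays' distributions and would hide a change common to most genes. Precision is limited by the number of arrays, and detection calls were not used. Of 45101 probe sets, 64 controls were left out, and 34945 had 1 gene symbol, 932 several and 9160 none; 34741 symbols were updated by gene identifier from a RefSeq table (GRCm38.p6).

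The probe set with the highest 6-array mean stood for its gene. Libraries were grouped by title. The comparison of distal with proximal libraries used limma 3.58.1 (R 4.3.3; lmFit, eBayes, two-sided, Benjamini-Hochberg adjustment over 18194 features, threshold 0.05), without a block for the number in the title. Nothing ties libraries to animals, so p-values reflect only the spread among these libraries, which may be technical. The calculation was tested on simulated data. Each gene minus Kit was fitted the same way, and also without variance moderation.

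The 8 members were named in full; of each list, up to 5 genes with the smallest p in the 4-library fit and its 3 brightest genes could be named, and 5 nearest profiles each for Kit, Ano1 and Thbs4, leaving out predicted and clone names. Hoxb13 was named to show which libraries stand apart. The T cell markers that did not pass were named after their values were seen, to show the rest of that list. Kitl, Cpa3, Ms4a2, the motifs, and the lists' families were chosen for their known roles, Kitl, Cpa3 and Ms4a2 after their values were seen; for those mast cell genes the brightest of the list are given beside them. Members and lists were chosen with earlier results of these data known. Deviations from group means correlated at 0.677, -0.448 and 0.677 between same-numbered libraries 1, 2 and 3. Those means include proximal 1 and distal 3, so the signs follow that split and cannot show which libraries share an animal. The numbers were not taken to pair libraries because no label ties them to an animal.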

Additional observations from a re-analysis of the deposited data

How the results depend on the processing

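As labelled, 0 of 8 members and 0 of 18194 features passed (limma) under a replicate block, without dim genes, with quantile normalization, the mean of probe sets, a trended and robust prior, median centring, a threshold of 0.01, and without each library in turn. Dim genes were those under a mean of 9.308, which left out Gjc1, Prkcq and Pde3a. Without proximal 1 and distal 3 the counts were 3 and 3494. In those 4 libraries the count of members was 2 under every scaling, probe set, filter, prior and threshold alternative and 1 to 2 with 1 library left out. The count of features was 1112 at a threshold of 0.01 and 146 to 1633 with 1 library left out, which leaves 1 library in a label that is assumed to vary like the others.

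Counts of list genes called in the 4 libraries moved by over 1.5 times in some settings. Calcium and chloride handling went from 4 to 7 without dim genes, 8 with quantile normalization or median centring and 9 with a trended and robust prior. Smooth muscle went from 2 to 4 without dim genes and 6 with that prior, and KIT signalling from 4 to 2 and epithelium from 3 to 1 with median centring. Without dim genes T cells went from 6 to 1, mast cells from 3 to 0 and the receptors from 5 to 3, as fewer of their genes were tested. The other lists with 2 or fewer calls moved by at most 1.

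For the comparison with Kit, 0 of 7 members passed as labelled, 1 (Thbs4) with the replicate block, 0 to 1 with 1 library left out and 2 without proximal 1 and distal 3. In the 4 libraries, 0 passed without moderation of the variance. The count of 2 there rests on the same SE for all features, so it reflects only the size of the differences. The numbers in the titles are shared only as numbers, and no block could be fitted in the 4 libraries, which share 1 number.

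Among these results, signs turned for differences that did not pass with limma, and for Pde3a in the 4 libraries, which passed at -0.48 and was 0.03 for another of its probe sets. For Gjc1 as labelled the value was 0.017 with the mean of probe sets, 0.041 with quantile normalization, 0.035 with median centring, 0.063 for its other probe set and -0.14 to 0.05 with 1 library left out. For Gjc1 in the 4 libraries it was 0.015, 0.034, 0.028 and 0.095 in that order and -0.14 to 0.015 with 1 library left out. Kit was 0.025 in the 4 libraries, where its mean of probe sets gave -0.08, its other probe set -0.18 and leaving out 1 library -0.23 to 0.28; as labelled leaving out 1 library gave -0.20 to 0.06. Prkcq as labelled was 0.012 with median centring and -0.24 to 0.058 with 1 library left out. The other Etv1/Gm5454 probe sets gave -0.01 and -0.013 as labelled and -0.17 and -0.015 in the 4 libraries, and that Pde3a probe set gave 0.16 as labelled. Against Kit, Pde3a was 0.052 with the mean of probe sets, Gjc1 was -0.09 and Prkcq -0.32 in the 4 libraries, and Gjc1 there was 0.095 with the mean of probe sets. With 1 library left out these ran -0.40 to 0.11 for Pde3a, -0.027 to 0.23 for Gjc1 and -0.17 to 0.26 for Prkcq as labelled, and -0.35 to 0.17 for Gjc1 in the 4 libraries. The cause was not tested.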
